A study of Homo sapiens with 4 samples.

Results

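The cytosolic heat shock chaperones and the transcription factor HSF1 were examined in Daoy cells, a long-established line grown from a human medulloblastoma. The set holds 10 genes, chosen by name from 57820 gene identifiers in the count files: HSPA1A, HSPA1B, HSPA8, HSPA4, HSPH1, HSP90AA1, HSP90AB1, DNAJB1, HSPB1 and HSF1. All 10 matched an identifier, and all 10 were among the 17024 genes that passed the filter on low counts. Poly(A)-selected RNA was sequenced in 4 libraries. Wild type is the label of 3 of them, and 1, called here the library labelled shRNA, carries an shRNA, a short hairpin RNA that lowers its target mRNA by RNA interference, against ARID1B, a subunit of the SWI/SNF chromatin remodelling complexes. The hairpin was carried in Daoy as a polyclonal population by the lentiviral vector tet-pLKO-puro, which doxycycline switches on, and the treatment recorded with all 4 libraries is 1 µg/ml doxycycline over 72 h. The series design gives parental cells and cells with the vector alone as controls; which wild-type library is of which kind is not stated. The shRNA arm has no replicate, nothing says that the wild-type libraries were separate cultures, and p-values here measure only the spread among those 3 libraries. In bulk RNA, fewer cells expressing a gene and less of its RNA per cell cannot be told apart.

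Heat shock proteins bind unfolded or partly folded proteins and keep them from aggregating. HSP70 proteins bind short exposed stretches and release them in an ATP cycle that J-domain proteins start and nucleotide exchange factors complete, HSP90 takes over clients such as kinases and steroid receptors at a later step, and small heat shock proteins hold unfolded chains without using ATP. HSF1 is kept inactive by chaperones in unstressed cells. When unfolded proteins accumulate, HSF1 forms trimers, binds heat shock elements in promoters and raises transcription of the inducible chaperones, while HSF1 itself is mostly controlled at the protein level.

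The libraries held 12619786, 13228587 and 15390106 reads in genes in wild type 1, 2 and 3, against 8792848 in the library labelled shRNA. ARID1B mRNA, the check of the label, was at 164, 88.0 and 72.9 CPM (counts per 1000000 reads after scaling by the trimmed mean of M values, TMM) in wild type against 175 CPM in the library labelled shRNA (log2 fold change 0.69, SE 0.46, edgeR adjusted p = 0.399), so the targeted mRNA was not lower there. Of 14 markers of neural and cerebellar progenitors, 8 were at 1 CPM or more in every library and ATOH1 was at 0 counts in all 4. Of 8 mesenchymal markers 7 were, with a summed level of 6393 to 8283 CPM in wild type against 4607 CPM in the library labelled shRNA. Of 8 epithelial markers 4 were, with a summed level of 246 to 348 CPM in wild type against 400.2 CPM. Blood markers summed to 1.39 CPM or less. The part of these markers in the results was not tested. Fold changes rose with the GC content of the transcript across all genes, and values with that trend removed are given below. Anything else that set the single library labelled shRNA apart from wild type cannot be told apart from the group.

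In wild-type Daoy cells both HSP90 genes and HSPA8 were the most abundant of the 10. Per kilobase of transcript, HSP90AB1, the constitutive HSP90, was highest at 1262 ± 129 CPM per kb (SD, n = 3), followed by HSPA8, the constitutive HSP70 also called HSC70, at 857 ± 126 and HSP90AA1, the stress-inducible HSP90, at 746 ± 95.5. HSPA8 was above HSP90AA1 within each wild-type library, at 798, 1002 and 772 CPM per kb against 785, 816 and 637, although the ranges over the libraries overlapped. HSPA4, an HSP110-family nucleotide exchange factor for HSP70, was at 111 ± 7.10 CPM per kb, DNAJB1, a J-domain protein also called HSP40, at 55.4 ± 7.72, and HSPH1, the HSP110 family member also called HSP105, at 42.0 ± 4.20. HSPB1, the small heat shock protein HSP27, was at 18.3 ± 16.1 CPM per kb and HSF1 at 13.2 ± 3.65. The 5.95 to 36.5 CPM per kb of HSPB1 in single libraries spanned the levels of HSF1, HSPA1B and HSPA1A.

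**Figure D1:**
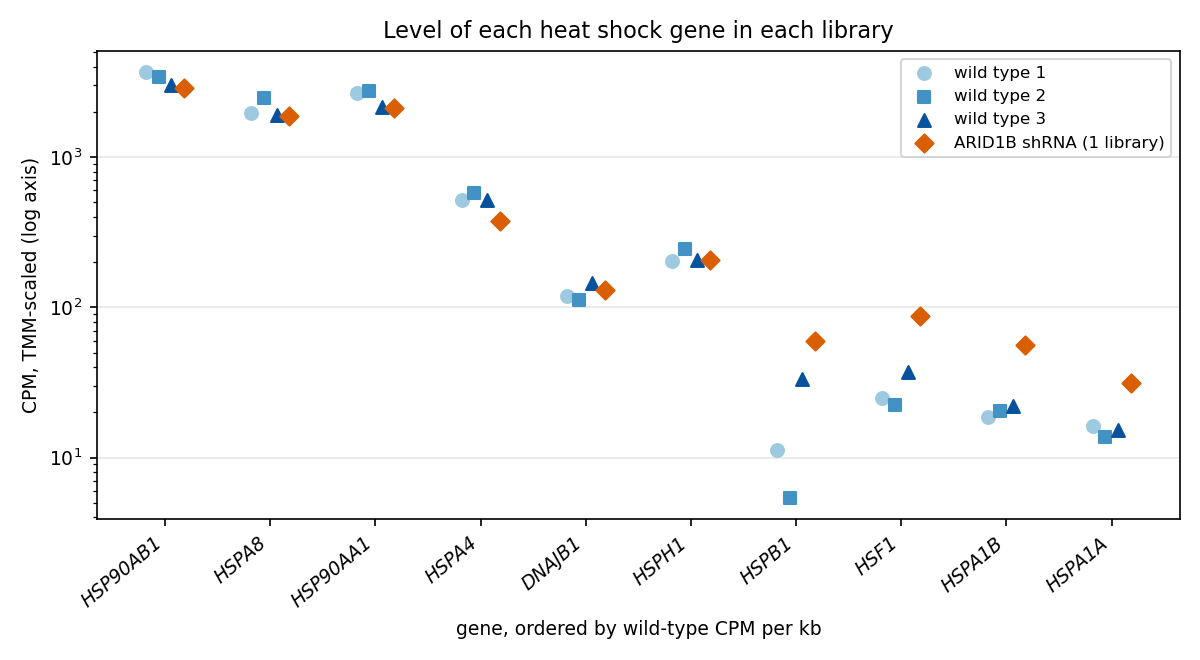
Level of the 10 heat shock genes in each of the 4 libraries, as TMM-scaled CPM on a log axis, ordered by wild-type CPM per kb; each point is 1 library. HSPB1, HSF1, HSPA1B and HSPA1A are higher in the library labelled shRNA than in every wild-type library, and the more abundant genes lie close together.

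HSPA1A and HSPA1B, the stress-inducible HSP70 genes, were lowest per kilobase of whole transcript, at 6.05 ± 0.532 and 8.04 ± 0.628 CPM per kb in wild type. These levels are uncertain, since the genes lie side by side on chromosome 6 and encode the same protein. Of the 2384 windows of 100 bases in the HSPA1A transcript, the length of a read here, 1666 (69.9%) occur letter for letter in HSPA1B, and they make up 68.8% of the windows of HSPA1B. The files list reads that align to several places apart from the gene counts, 4.39% to 5.06% of the number of genic reads, and how many of them came from the shared stretches was not tested. Per kilobase of windows not shared, HSPA1A was at 20.9 ± 1.84 CPM and HSPA1B at 26.8 ± 2.09 CPM in wild type. On that scale the order turned, with HSF1 lowest at 13.8 ± 3.83 CPM and HSPB1 at 21.6 ± 19.1 CPM. For comparison, HSP90AA1 shared 2.23% of its windows with other transcripts, HSPB1 5.06%, HSP90AB1 1.59%, and HSPA8, HSPA4, HSPH1, DNAJB1 and HSF1 none outside genes that overlap them in place.

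In the library labelled shRNA, 2 of the 10 genes, HSPA1B and HSF1, rose, and none fell; 4.48% of all tested genes were called, 3.65% as higher and 0.834% as lower. HSPA1A and HSPB1 were also above all wild-type libraries without passing the test, and the 6 more abundant genes had log2 fold changes between -0.51 and 0.05. The median log2 fold change of the 10 genes was -0.01, against -0.05 for all tested genes. After removal of the trends with GC content and transcript length in each library (below, the trend), 1 of the 10, HSPA1B, was called, as higher, against 2.93% of all tested genes in either direction and 2.09% as higher. The median log2 fold change was then 0.13 for the 10 genes and -0.02 for all tested genes. By other routes, 3 of the 10 were called with DESeq2 (10.4% of all tested genes) and 3 without a filter (10.5%), where HSPA1A joined them, and 2 with limma-voom (4.81%). Without wild type 1, 2 or 3 the count was 2, 0 and 1, against 7.07%, 0.938% and 2.85% of all tested genes.

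HSF1, the master regulator of the heat shock response, was at 24.9, 22.5 and 37.1 CPM in wild type 1, 2 and 3 and at 87.8 CPM in the library labelled shRNA, where 770 counts give an exact 95% Poisson interval of 81.7 to 94.3 CPM. All wild-type libraries were lower, with wild type 3 the nearest. HSF1 thus rose 3.12-fold over the wild-type mean of 28.2 ± 7.83 CPM (SD, n = 3), with a log2 fold change of 1.64, an SE of 0.30 and an edgeR adjusted p of 0.0448. The HSF1 transcript has a GC content of 63.9%, and the 598 tested genes within 1 percentage point of it had a median log2 fold change of 1.26. With the trend removed the log2 fold change of HSF1 was 0.44 (SE 0.15, edgeR adjusted p = 0.172), and its call also ended without wild type 2 (edgeR adjusted p = 0.0765).

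The other heat shock factors and the HSF1 regulator measured here did not pass. HSF2, a related factor active in development, was at 33.3, 37.0 and 29.6 CPM in wild type against 25.9 CPM in the library labelled shRNA (log2 fold change -0.36, edgeR adjusted p = 0.374). HSF4, best known from the lens, was at 2.56, 2.55 and 4.04 CPM against 5.36 CPM (0.81, edgeR adjusted p = 0.287), and its direction turned with the trend removed (-0.48). HSBP1, which binds HSF1 and restrains it, was at 83.6, 88.0 and 86.2 CPM against 66.3 CPM (-0.38, edgeR adjusted p = 0.234). DGAT1 on the opposite strand overlaps 2.62% of the exonic bases of HSF1, and the library kit does not mark strand, so reads there cannot be told apart.

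HSPA1B rose. Its level was 18.7, 20.3 and 21.9 CPM in wild type 1, 2 and 3, a narrow range, and 56.1 CPM in the library labelled shRNA (492 counts, 95% Poisson interval 51.3 to 61.3 CPM). Its log2 fold change, 1.47 (SE 0.20), passed the test (edgeR adjusted p = 0.0283), a 2.77-fold increase over 20.3 ± 1.58 CPM (SD, n = 3). Its transcript is 58.7% GC, where 998 tested genes had a median log2 fold change of 0.39 and 4.21% were called higher. This GC content and the trend use the whole transcript. The GC content of the windows not shared with HSPA1A was not computed. With the trend removed HSPA1B kept a log2 fold change of 1.05 (SE 0.18, edgeR adjusted p = 0.0493), and 0.99 (edgeR adjusted p = 0.0558) where the trend was estimated on each gene's longest transcript. Without wild type 2 or wild type 3 the edgeR adjusted p was 0.0574 and 0.0523, at log2 fold changes of 1.48 and 1.52.

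HSPA1A was at 16.2, 13.6 and 15.2 CPM in wild type against 31.4 CPM in the library labelled shRNA (275 counts, 95% Poisson interval 27.8 to 35.3 CPM), above all wild-type libraries. Its log2 fold change of 1.06 (SE 0.22) did not pass (edgeR adjusted p = 0.0591), and it was 0.51 with the trend removed (edgeR adjusted p = 0.217). Because the counts of such near-identical copies are uncertain, those of the pair were also added and tested as 1 gene. Reads set apart for aligning to several places are not in the sum. For trend removal the sum took the GC content and length of HSPA1A. The sum was 34.9, 33.9 and 37.1 CPM in wild type against 87.5 CPM in the library labelled shRNA, a log2 fold change of 1.31 (SE 0.17, edgeR adjusted p = 0.0272). With the trend removed the sum had a log2 fold change of 0.76 (SE 0.17, edgeR adjusted p = 0.0791), and its edgeR adjusted p was 0.0561 without wild type 2 and 0.0521 without wild type 3. HSPA1B took 53.6%, 59.8% and 58.9% of the reads of the pair in wild type against 64.1% in the library labelled shRNA (exact 95% Clopper-Pearson interval 60.6% to 67.5%, which covers counting error only, as do the Poisson intervals).

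The promoters of the pair are shown because the genes share them almost whole. Beside them are stretches with matches to heat shock elements from HSPA8 and HSP90AB1, genes that were not called. HSP90AB1 has further annotated starts upstream, and their windows, from chr6:44245944 and chr6:44246851, held 0 matches. Each line gives the 250 bases before a RefSeq transcription start of GRCh38.p14, 5′ to 3′ on the gene's strand, with matches to the heat shock element units GAANNTTC or TTCNNGAA in capitals.
HSPA1A, chr6:31815293-31815542, plus strand: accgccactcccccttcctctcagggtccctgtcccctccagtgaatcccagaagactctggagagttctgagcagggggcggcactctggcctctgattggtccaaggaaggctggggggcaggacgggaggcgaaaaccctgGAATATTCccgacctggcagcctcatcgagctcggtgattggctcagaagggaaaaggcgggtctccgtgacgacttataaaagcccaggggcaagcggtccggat
HSPA1B, chr6:31827488-31827737, plus strand: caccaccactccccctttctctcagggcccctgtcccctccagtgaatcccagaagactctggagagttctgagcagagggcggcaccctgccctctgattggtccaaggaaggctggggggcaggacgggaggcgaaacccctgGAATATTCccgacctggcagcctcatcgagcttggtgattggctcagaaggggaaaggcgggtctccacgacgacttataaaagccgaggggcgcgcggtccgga
HSPA8, chr11:123062137-123062386, minus strand: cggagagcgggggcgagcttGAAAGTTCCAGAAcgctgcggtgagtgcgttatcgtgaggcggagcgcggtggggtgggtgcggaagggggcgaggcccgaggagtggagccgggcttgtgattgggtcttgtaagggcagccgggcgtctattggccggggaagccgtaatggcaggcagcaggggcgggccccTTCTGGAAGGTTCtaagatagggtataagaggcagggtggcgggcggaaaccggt
HSP90AB1, chr6:44247693-44247942, plus strand: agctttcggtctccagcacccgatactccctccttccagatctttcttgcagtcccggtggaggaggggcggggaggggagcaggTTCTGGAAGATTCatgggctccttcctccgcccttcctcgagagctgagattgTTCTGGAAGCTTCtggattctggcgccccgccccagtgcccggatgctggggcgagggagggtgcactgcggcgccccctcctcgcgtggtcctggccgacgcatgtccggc

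Aligned with each other, the HSPA1A and HSPA1B stretches were identical at 235 of 249 paired bases (94.4%). Each holds 1 match, which begins 106 bases before the start in HSPA1A and 105 bases before it in HSPA1B. Each of these motifs reads the same on both strands, and where a match to one overlaps a match to the other by 3 bases they form the longer heat shock element of 3 units. Over windows of 300 bases, which add 50 bases after the start, 13.5% of all 35116 promoter windows held a shorter motif and 0.490% held a longer one. Of the 9 genes with a window in the table, all but HSF1, the shorter motif was found in 7 and the longer one in 3, HSPA8, HSP90AB1 and HSP90AA1. HSP90AB1, HSP90AA1 and DNAJB1 have several windows, and a gene was counted where any of its windows matched. Counted by window, as the share of all promoter windows is, 8 of 14 held the shorter motif. A match describes letters in this window and is no evidence of binding.

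HSPB1 varied most between wild-type libraries, at 11.3, 5.41 and 33.2 CPM in wild type 1, 2 and 3. It stood at 59.8 CPM in the library labelled shRNA (524 counts, 95% Poisson interval 54.8 to 65.1 CPM), above all 3, with wild type 3 the nearest. The log2 fold change of 1.84 had an SE of 0.87 and did not pass (edgeR adjusted p = 0.263). Without wild type 3 it was 2.84 (edgeR adjusted p = 0.0734). At 64.5% GC, HSPB1 lies where the median tested gene had a log2 fold change of 1.37, and with the trend removed its own was 0.76 (SE 0.78, edgeR adjusted p = 0.612).

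**Figure D2:**
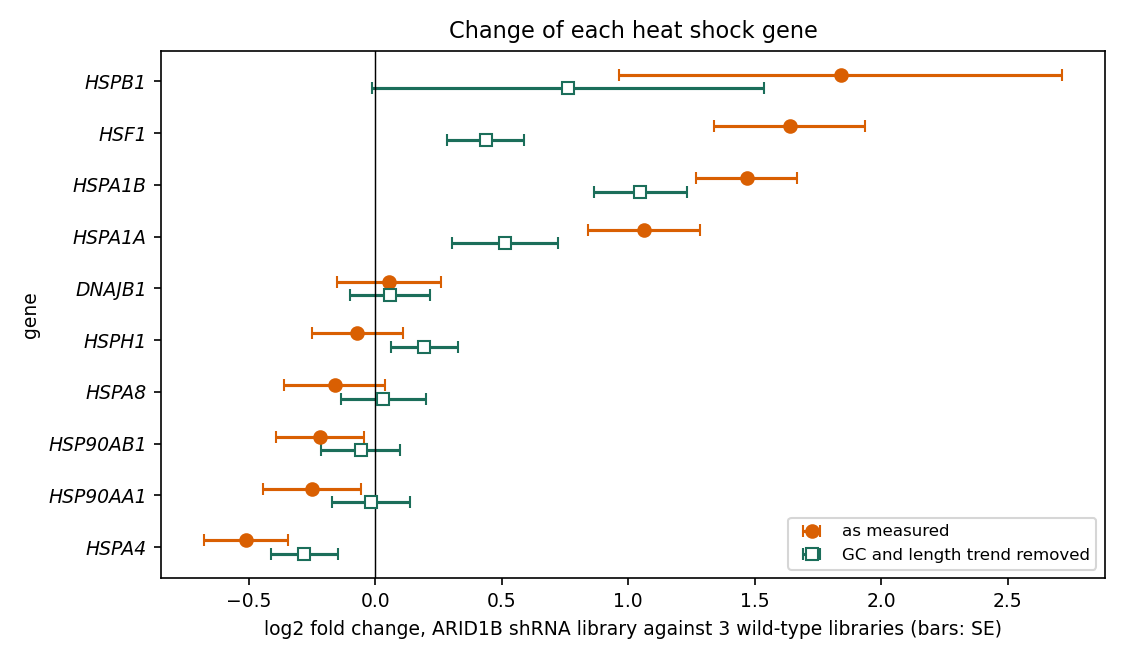
Log2 fold change of each heat shock gene in the library labelled shRNA relative to wild type (n = 3), as measured (filled circles) and after trend removal (open squares); bars are standard errors. HSF1 moves from 1.64 to 0.44 and HSPA1B from 1.47 to 1.05, while DNAJB1 stays at 0.05 and 0.06.

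The constitutive HSP70 machine did not pass the test in either direction. HSPA8 was at 1964, 2467 and 1901 CPM in wild type against 1888 CPM in the library labelled shRNA, just under the lowest wild-type library (log2 fold change -0.16, SE 0.20, edgeR adjusted p = 0.648). HSPA4 was at 516, 575 and 515 CPM against 376 CPM, below all wild-type libraries. Its log2 fold change of -0.51 (SE 0.16) had an edgeR adjusted p of 0.133, and -0.28 (edgeR adjusted p = 0.267) with the trend removed.

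HSPH1 was at 203, 243 and 207 CPM in wild type against 207 CPM in the library labelled shRNA, inside the wild-type range (log2 fold change -0.07, SE 0.18, edgeR adjusted p = 0.833). DNAJB1, an HSF1 target that hands clients to HSP70 and starts its ATP cycle, was also inside the range, at 119, 112 and 145 CPM against 130 CPM (log2 fold change 0.05, SE 0.21, edgeR adjusted p = 0.898). The direction of HSPH1 turned with the trend removed (0.19), and that of DNAJB1 with upper-quartile scaling (-0.07).

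Both HSP90 genes were slightly below the wild-type range without passing. HSP90AA1 was at 2652, 2756 and 2153 CPM in wild type against 2120 CPM in the library labelled shRNA (log2 fold change -0.25, SE 0.19, edgeR adjusted p = 0.456). HSP90AB1 was at 3685, 3434 and 3002 CPM against 2898 CPM (-0.22, SE 0.17, edgeR adjusted p = 0.467). In both genes wild type 3 lay close to the library labelled shRNA and below the other wild-type libraries. With the trend removed the log2 fold changes were -0.02 and -0.06.

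In all, 4 of the 10 genes were above every wild-type library and 4 were below, against 35.4% and 37.9% of all tested genes, and 73.3% of all tested genes lay outside the wild-type range. The 4 genes above it, HSPA1A, HSPA1B, HSPB1 and HSF1, have transcripts of 58.7% to 64.5% GC and wild-type means of 15.02 to 28.2 CPM. The 6 other genes have 39.95% to 53.0% GC and wild-type means of 125 to 3373 CPM. Tested genes within 1 percentage point of GC of each of the 4 had median log2 fold changes of 0.39 to 1.37, and those around the 6 had medians of -0.27 to -0.01. Set against the median of its own GC neighbours, HSPA1B was higher by 1.08, HSPA1A by 0.57, HSPB1 by 0.47 and HSF1 by 0.38 on the log2 scale, and HSPA4 was at -0.28.

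**Figure D3:**
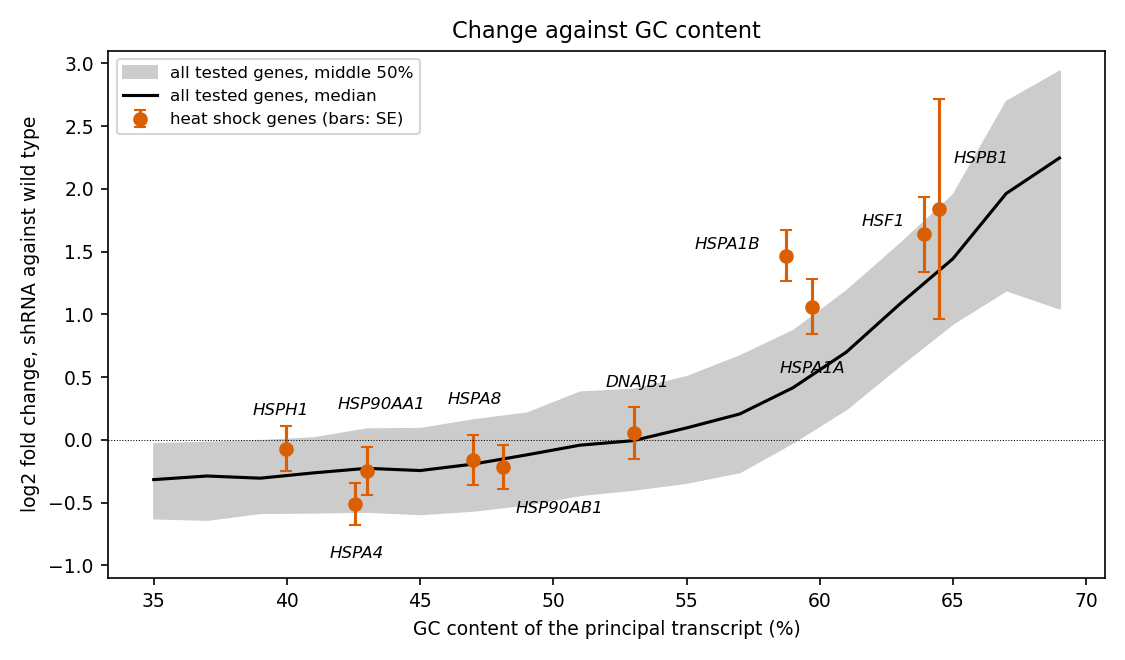
Log2 fold change in the library labelled shRNA against the GC content of each gene's principal transcript; orange points with SE bars are the 10 heat shock genes, the line is the median and the grey band the middle 50% of all tested genes in bins of 2 percentage points. Of the 10 genes HSPA1B lies farthest above the median line, by 1.08, and the median gene rises from below 0 at 40% GC to over 1 near 64%.

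Wild type 3 differed from the other wild-type libraries in the same direction as the library labelled shRNA in several of these genes. It was highest of the 3 in HSF1, HSPB1 and HSPA1B and lowest in HSP90AA1, HSP90AB1 and HSPA8. In HSPA4 it was lowest by little, at 515 CPM against 516 and 575 CPM. It was also highest in DNAJB1, where the library labelled shRNA lay inside the wild-type range. The 10 genes took 0.940% and 0.944% of genic reads in wild type 1 and 2, 0.802% in wild type 3, against 0.783% in the library labelled shRNA. HSP90AA1, HSP90AB1 and HSPA8 made up 87.9% to 90.1% of these reads, so the total follows those 3 genes.

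Ratios between chaperones within a library compare genes free of library scaling. Per kilobase, HSP90AB1 exceeded HSP90AA1 by 1.76, 1.57 and 1.76 times in wild type against 1.73 times in the library labelled shRNA, inside the wild-type range. HSPA8 exceeded HSPH1 by 20.4, 21.4 and 19.3 times in wild type and by 19.2 times there. HSPA8 exceeded the sum of HSPA1A and HSPA1B by 57.2, 74.1 and 52.1 times in wild type against 21.97 times in the library labelled shRNA, below every wild-type library. Per kilobase of unshared windows the same ratio was 17.6, 22.8 and 16.04 in wild type against 6.77. The ratio carries the GC difference between these transcripts: with the trend removed the log2 fold changes were 0.76 for the pair and 0.03 for HSPA8, and the former did not pass. With 1 library against 3 an exact permutation test of such a ratio cannot give a p below 0.25, so the ratios are a description.

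A list of HSF1 targets, which also holds the HSP70 relatives HSPA1L and HSPA2, had 21 tested genes outside the 10. Of these, 2 rose (9.52%, against 3.65% of all tested genes called higher), 19 did not pass and none fell. The list median log2 fold change was 0.14, and 0.34 with the trend removed, against -0.05 and -0.02 for all tested genes. DEDD2, a death-effector domain protein, rose from 14.4 ± 3.17 CPM (SD, n = 3) to 42.0 CPM (1.54, edgeR adjusted p = 0.0429; 0.189 with the trend removed). ZFAND2A, an arsenite- and heat-inducible zinc finger protein also called AIRAP, was at 20.4, 19.1 and 21.3 CPM against 41.7 CPM. Its log2 fold change of 1.04 had an edgeR adjusted p of 0.0507, and 1.20 with the trend removed passed (edgeR adjusted p = 0.0284). SERPINH1, the collagen chaperone HSP47, was at 279 ± 53.7 CPM (SD, n = 3) and 513 CPM, a log2 fold change of 0.88 (edgeR adjusted p = 0.0921) and of 0.43 with the trend removed.

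Of 24 HSP70 partners 1 rose (4.17%, near the 3.65% of all tested genes called higher), the J-domain gene DNAJB2. DNAJB2 went from 31.5, 27.7 and 33.5 CPM to 79.3 CPM (a log2 difference of 1.36, edgeR adjusted p = 0.0299; 0.187 with the trend removed). HSPBP1 and STUB1, a nucleotide exchange factor and the ubiquitin ligase CHIP, reached 1.70 and 2.29 on the log2 scale without passing (adjusted p by edgeR 0.0674 and 0.0702), and 0.42 and 0.94 with the trend removed. DNAJB5 had -1.02 (edgeR adjusted p = 0.0872). Of 24 HSP90 partners 2 rose (8.33%, against 3.65% of all tested genes called higher). TELO2, which stabilises kinases of the mTOR family with HSP90, went from 4.73, 2.94 and 8.20 CPM to 37.1 CPM (2.80, edgeR adjusted p = 0.0449). TELO2 did not pass after trend removal (edgeR adjusted p = 0.104). FKBP5, a glucocorticoid-induced HSP90 partner, and NUDC stood at -0.63 and 0.63 on the log2 scale (adjusted p by edgeR 0.128 and 0.133). Without wild type 2 none of the HSF1 targets or the HSP70 and HSP90 partners was called.

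None of the 14 tested subunits of the CCT chaperonin and prefoldin passed with edgeR or DESeq2 (1 had an unadjusted edgeR p below 0.05). Of these, 10 were below every wild-type library, against 37.9% of all tested genes. The list median log2 fold change was -0.14, and 0.04 with the trend removed, against -0.05 and -0.02 for all tested genes. CCT2 was at 572, 591 and 535 CPM in wild type against 454 CPM in the library labelled shRNA (log2 fold change -0.32, edgeR adjusted p = 0.265). PFDN5 and PFDN2 stood at -0.54 and 0.53 on the log2 scale (adjusted p by edgeR 0.13 and 0.199) and VBP1 had -0.28 (edgeR adjusted p = 0.418), or 0.0097 with the trend removed. Of the small heat shock proteins beside HSPB1 only HSPB8 and HSPB6 were tested. HSPB8, which works with BAG3 in the clearance of damaged proteins, was at 85.6 ± 8.43 CPM (SD, n = 3) and 110 CPM (edgeR adjusted p = 0.278), and HSPB6 was near 1 CPM throughout (log2 fold change 0.35, edgeR adjusted p = 0.722; -0.61 with the trend removed).

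In another stress pathway, 22 of 23 genes of the ATF4 and CHOP response rose in the same library, against 3.65% of all tested genes called higher. Among the 23 are ATF4 itself and DDIT3, the gene of CHOP. The list was chosen with its response in these data known, so its count is a description and no measure for the heat shock genes. Its median log2 fold change was 2.32, and the remaining gene, ATF5, had 1.18 (edgeR adjusted p = 0.0665), or 0.60 with the trend removed. The count was 12 without wild type 2, 16 without wild type 3 and 19 with the trend removed. In the same order, 0.938%, 2.85% and 2.93% of all tested genes were called in either direction. TRIB3, a pseudokinase induced by CHOP, had a log2 fold change of 4.73, ASNS, asparagine synthetase, 2.32, SLC3A2, an amino acid transporter subunit, 2.33 and PHGDH, the first enzyme of serine synthesis, 2.19, each with an edgeR adjusted p of 0.0149. The difference between this list and the 10 heat shock genes was not tested. The heat shock genes and these lists were compared with the same 3 wild-type libraries.

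**Figure D4:**
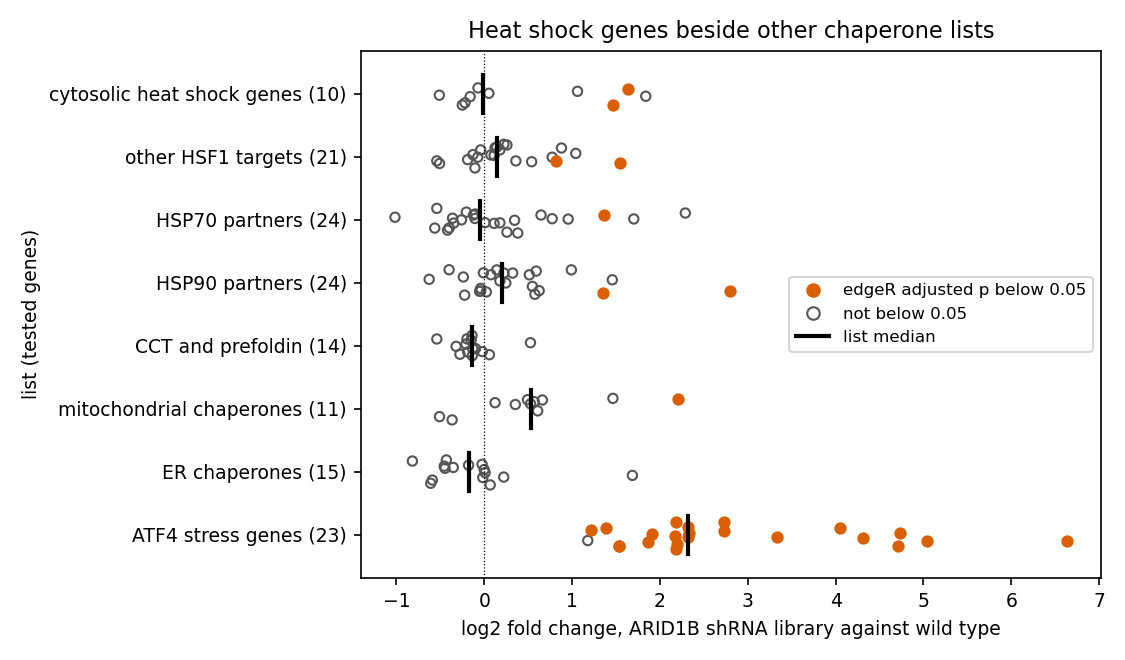
Log2 fold change of every tested gene in 8 lists, in the library labelled shRNA against wild type; filled points have an edgeR adjusted p below 0.05, bars are list medians, and the number of tested genes stands beside each list. The cytosolic heat shock genes centre at -0.01 and the ATF4 stress genes, a list chosen with its response in these data known, at 2.32. With the trend removed these medians are 0.13 and 2.42.

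Among 6086 protein-coding genes with a mean log2 CPM of at least 5, those nearest to HSPA1B in pattern over the 4 libraries were KCTD5, GATAD2A and MTHFD1L, at Euclidean distances of 0.11, 0.12 and 0.13 on the log2 scale after centring each gene. KCTD5, an adaptor of a ubiquitin ligase, went from 25.6 ± 2.98 CPM (SD, n = 3) to 73.6 CPM, GATAD2A, a subunit of the NuRD complex, from 66.9 ± 9.11 to 180 CPM, and MTHFD1L, a mitochondrial folate enzyme, from 43.0 ± 4.50 to 108 CPM. With 4 libraries such likeness rests mainly on the step between the library labelled shRNA and wild type.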

How the data were processed

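RNA was measured by poly(A) RNA sequencing with single reads of 100 bases, per the labels' protocols. The authors deposited raw counts, the number of reads assigned to each gene, in a file for each library. The submitters' processing notes name the tools bcl2fastq, HISAT2, HTSeq and DESeq2 and the build GRCh37 (hg19); tool versions, counting mode, strand setting and annotation were not stated there. Rows that name no gene were left out; reads outside genes or ambiguous made up 12.0% to 13.6% of these and genic reads together. Identifiers were matched without version to current symbols (51996 of 57820) and to GENCODE 29 (52338), which gave transcript lengths and GC content from the longest principal transcript, or the longest where none is marked. GENCODE 29 is on GRCh38, so coordinates are given only for RefSeq promoter windows of GRCh38.p14.

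The test was that of edgeR 4.0.16 (R 4.3.3): filterByExpr (minimum count 10, minimum total 15), TMM, glmQLFit with robust shrinkage and glmQLFTest, with Benjamini-Hochberg adjustment over all 17024 tested genes and a threshold of 0.05. The 2 residual degrees of freedom come from wild type, whose spread stands in for that of the shRNA library. SE is the absolute log2 fold change divided by the square root of F. The trend on GC content and length was a loess fit (span 0.3) per library over genes whose mean count reached 20, removed through offsets. Also run were DESeq2 1.42.0, limma-voom 3.58.1, scaling by RLE or the upper quartile, testing without a filter or only genes with mean counts from 50 up, fitting without robust shrinkage, trend removal and leaving out each wild-type library. Added after seeing the data were a trend on the longest transcripts, a trend on GC content alone and TMM factors from genes of 40% to 55% GC content. The procedure was tested on simulated counts of 3 libraries against 1, with the same dispersion for every gene, unlike these data. Of 50 genes changed 2-fold 33 were called in the right direction, and of 50 each at 0.5-fold, 4-fold and 0.25-fold 27, 50 and 48. Named genes were the 10 members, ARID1B, up to 4 genes per list with the smallest p and the 3 genes nearest in pattern to the member with the smallest p, and the 3 pseudogene rows with the most counts; genes called only with the trend removed were named after their values were seen. Members and lists were chosen with earlier results of these data known. Some genes that this rule names are not reported here.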

Additional observations from a re-analysis of the deposited data

How the results depend on the processing

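The count of heat shock genes called, 2, was 3 with DESeq2 and with no filter, where HSPA1A also passed at log2 fold changes of 1.09 and 1.04. It was 1 with the GC and length trend removed, 1 with the GC trend alone removed, 1 with TMM factors from genes of 40% to 55% GC content, 0 with the trend on longest transcripts and 0 to 2 without single wild-type libraries. Of all 17024 tested genes, 498, 555, 645 and 516 were called in that order, and 157 to 1189 genes without single wild-type libraries. HSF1 missed the threshold with a log2 fold change of 0.44 with the trend removed, 0.11 with the trend on longest transcripts, 0.36 with the GC trend alone removed and 1.77 with TMM factors from mid-GC genes, and had 1.51 to 1.89 without single libraries. HSPA1B missed it at 0.99 with the trend on longest transcripts and had 1.41 to 1.52 without single libraries. The sum of HSPA1A and HSPA1B missed it at 0.76, 0.70 and 0.74 in the same order of trends and had 1.29 to 1.34 without single libraries.

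Signs turned only in genes that were never called. HSPA8 went to 0.032 with the trend removed and 0.034 with GC alone. HSPH1 went to 0.19, 0.20 and 0.22 under the 3 trends, to 0.070 with mid-GC factors and spanned -0.12 to 0.025 without single libraries. DNAJB1 went to -0.067 with upper-quartile scaling and spanned -0.0095 to 0.17. ARID1B spanned 0.47 to 1.12 without single libraries, and passed without wild type 1 (edgeR adjusted p = 0.026). Over 140 such comparisons of the 10 genes 121 kept direction and side of the threshold.

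All tested genes called, 763 (621 higher, 142 lower), came to 1775 with DESeq2 (1336 and 439), 3226 with no filter (2274 and 952), 498 with the trend removed (356 and 142) and 157 to 1189 without single libraries. List genes called, 28, came to 44 with no filter and 12 to 29 without single libraries. Upper-quartile scaling and no filter moved the median log2 fold change of all genes from -0.05 to -0.17 and -0.27, and mid-GC factors to 0.09. The cause was not tested beyond what each setting changes. No paired analysis was possible because the shRNA arm holds a single library.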

Other observations

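The cytosolic heat shock proteins have relatives in mitochondria and in the endoplasmic reticulum (ER). Of 11 tested mitochondrial chaperones and proteases 8 were above every wild-type library and 2 below, against 35.4% and 37.9% of all tested genes. LONP1, the protease that degrades damaged matrix proteins, was the 1 that rose (9.09%, against 3.65% of all tested genes). LONP1 was at 48.4, 43.8 and 77.3 CPM in wild type against 260 CPM in the library labelled shRNA (log2 fold change 2.20, SE 0.32, edgeR adjusted p = 0.0326; 1.10 and 0.0313 after trend removal). Without wild type 2 it did not pass (2.06, edgeR adjusted p = 0.0652). HSPA9, the HSP70 of mitochondria, was at 649, 750 and 659 CPM against 965 CPM (0.49, edgeR adjusted p = 0.136; 0.71 and 0.0548 with the trend removed). GRPEL2, its nucleotide exchange factor, had a log2 fold change of 0.66 (edgeR adjusted p = 0.109) and passed at 0.94 with the trend removed (edgeR adjusted p = 0.0313). CLPP, a matrix protease subunit, had 1.47 (edgeR adjusted p = 0.0595), or 0.42 with the trend removed.

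None of 15 tested ER chaperones passed with edgeR, and 6 had an unadjusted p below 0.05. Of the 15, 7 were below every wild-type library (46.7%, against 37.9% of all tested genes), 2 above (13.3%, against 35.4%) and 6 within. Upper-quartile scaling called 1 (lower), DESeq2 called 2 (1 higher, 1 lower) and testing without a filter called 4 (1 higher, 3 lower). Over all tested genes these settings called 747 of 17024, 10.4% and 10.5%. HSP90B1, the ER member of the HSP90 family, was at 1281, 1368 and 1166 CPM in wild type against 721 CPM in the library labelled shRNA (log2 fold change -0.82, SE 0.17, edgeR adjusted p = 0.0591). CALR and PDIA3, which fold glycoproteins, stood at -0.59 and -0.61 on the log2 scale (adjusted p by edgeR 0.0855 and 0.11), and SDF2L1, an ER stress gene, had 1.69 (edgeR adjusted p = 0.0647), or 0.31 with the trend removed (edgeR adjusted p = 0.528). The list medians were 0.53 for mitochondria and -0.18 for the ER, and 0.52 and -0.21 with the trend removed, against -0.05 and -0.02 for all tested genes. The lists were not compared by a test. DNAJB6, a cytosolic J-domain gene, passed only with the trend removed (0.92, edgeR adjusted p = 0.0415).

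A search by symbol for annotated pseudogene copies of the 10 genes found 32 rows in the files, of which 19 held counts. Among them is DNAJB12P1, named for DNAJB12, which is not among the 10 (0, 1 and 1 counts in wild type against 1). The 32 rows summed to 1.85% to 2.11% of the reads of the 10 genes in the 4 libraries. HSP90AA2P held 1432, 1527 and 1353 counts in wild type against 821 in the library labelled shRNA, and HSP90AB3P held 880, 810 and 767 against 360. HSP90AB2P held 97, 93 and 89 against 34.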
